A study of Homo sapiens with 12 samples.

Results

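The vacuolar ATPase and the lysosomal cathepsins were followed in PA-1 and SK-OV-3 cells treated with BAY-850, a compound that occupies the bromodomain of ATAD2, a chromatin protein. The genes were matched by symbol among 26475 gene symbols with RNA-seq counts. The matching itself uses no measured value, but it was set with earlier results of these data known. The choice took the subunits of the V0 and V1 sectors and the accessory proteins ATP6AP1 and ATP6AP2, the cathepsins, LAMP1, LAMP2, MCOLN1, TFEB and TFE3, 44 genes in all. They are 9 genes of the membrane-embedded V0 sector, 13 of the cytosolic V1 sector, 2 accessory proteins, 15 cathepsins, 3 lysosomal membrane proteins and 2 MiT/TFE transcription factors.

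The vacuolar ATPase is a rotary pump that spends ATP in its V1 sector to drive protons through its V0 sector into lysosomes, endosomes and secretory vesicles. Cathepsins are proteases that reach the lysosome as inactive precursors and are active in its acid lumen. TFEB and TFE3 are transcription factors that mTORC1 holds in the cytoplasm of fed cells, and that enter the nucleus and bind E-boxes with the core CACGTG near lysosomal genes when mTORC1 is inactive at the lysosome.

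PA-1 is a human line from an ovarian teratocarcinoma, and SK-OV-3 is a human line from an ovarian adenocarcinoma. Each line received DMSO alone as the control or BAY-850 at 5 µM, was harvested after 48 h, and was sequenced as 3 libraries in each of the 4 groups (PA-1 DMSO, PA-1 BAY-850, SK-OV-3 DMSO and SK-OV-3 BAY-850). PA-1 was grown in DMEM and SK-OV-3 in RPMI, both with fetal bovine serum, so medium and line cannot be told apart. No group carries an engineered allele, each line is a single established line, and the drug was given at a single dose and time.

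Library totals ran from 34544505 to 51840233 counts, and the 44 genes took 0.229% to 0.440% of them. SK-OV-3 BAY-850 replicate 3 had the highest total but the fewest genes with a count, 15629, against up to 18414 in other libraries. Genes for ribosomal RNA took 7.94% to 16.9% of counts. The labels describe oligo-dT selection and the design text names depletion of ribosomal RNA. The 7 markers of PA-1-type embryonal carcinoma summed, in counts scaled to a common library total by TMM factors (CPM), to 1368 to 1644 CPM in PA-1 and to 6.48 to 10.4 CPM in SK-OV-3, although L1TD1 was under 1 CPM in PA-1. The 7 carcinoma markers of SK-OV-3 were all above 1 CPM in that line, with a sum of 4124 to 4430 CPM with DMSO and 2893 to 3357 CPM with BAY-850. In PA-1 they summed to 925 to 980 CPM with DMSO and 1007 to 1054 CPM with BAY-850, with only KRT7 and EPCAM under 1 CPM. With DMSO, mean KRT8 was 532 CPM in PA-1 and 599 CPM in SK-OV-3, and mean KRT18 was higher in PA-1 (335 against 266 CPM).

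Promoter windows from RefSeq (GRCh38.p14, 250 bases before to 50 bases after a start site) were found for 31 of the 44 genes. They were searched for CACGTG, and for TCACGTGA, which contains it. Both read the same on either strand. CACGTG stood in the windows of 9 of these 31 genes (29%), against 8.77% of all 27305 genes with a window, and TCACGTGA in 5 (16.1%) against 1.18%. Of the genes with a window, CACGTG stood in 3 of 8 called higher in SK-OV-3 (37.5%). It stood in 6 of 17 tested in that line but not called (35.3%). For TCACGTGA these were 2 of 8 (25%) and 3 of 17 (17.6%). The 9 genes with CACGTG are ATP6V0B, ATP6V0D1, ATP6V0E2, ATP6V1G1, CTSA, CTSD, CTSF, LAMP1 and MCOLN1. The matches below, with 8 bases on either side and CACGTG in capitals, belong to the 3 genes with a match that rose in SK-OV-3 (CTSD, CTSA and ATP6V1G1) and to the genes with the smallest p in PA-1 (LAMP1 and ATP6V0D1).
CTSD, 47 bases before the start, chr11:1763961-1763982, minus strand: gccgcgccCACGTGaccggtcc
CTSA, 42 bases before the start, chr20:45891285-45891306, plus strand: aagactgtCACGTGgcgccgga
CTSA, 25 bases before the start, chr20:45891302-45891323, plus strand: ccggagttCACGTGactcgtac
ATP6V1G1, 58 bases before the start, chr9:114587703-114587724, plus strand: tgtgcggtCACGTGacaacggg
ATP6V0D1, 59 bases before the start, chr16:67481203-67481224, minus strand: cttatggtCACGTGaggcgctt
LAMP1, 192 bases before the start, chr13:113297039-113297060, plus strand: ggccgggtCACGTGggtccagg
LAMP1, 28 bases before the start, chr13:113297203-113297224, plus strand: cgcgggatCACGTGacgcccgg
LAMP1, 1 base before the start, chr13:113297230-113297251, plus strand: gcgcagctCACGTGacaagcgc

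TCACGTGA is complete in the second CTSA match, in ATP6V1G1, in ATP6V0D1 and in the last 2 LAMP1 matches. The LAMP1 window held 6 copies of CACGTG in all, the others lying 176, 159 and 142 bases before the start. A match says only that these letters stand in the window.

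In SK-OV-3 cells, BAY-850 raised 11 and lowered 1 of the 37 genes with enough counts to test, at an adjusted p under 0.05 in edgeR's quasi-likelihood test. Among all 15348 genes tested in this line, 10.8% were called higher and 9.56% lower, 20.4% in all. The 11 that rose are 4 V1 subunits (ATP6V1C1, ATP6V1D, ATP6V1E1, ATP6V1G1), the accessory protein ATP6AP1, 4 cathepsins (CTSA, CTSB, CTSD, CTSS) and both transcription factors, TFEB and TFE3. CTSC, cathepsin C, fell. Without DMSO replicate 2, or without DMSO replicate 3, 7 genes instead of 11 were called higher. The changes were small. They ranged from 1.17-fold for ATP6V1D to 1.79-fold for CTSS, and the median log2 fold change of the 37 genes was 0.11, against -0.01 for all genes tested. The libraries of the 2 groups did not overlap for 18 of the 37, against 38.6% of all genes. RNA was taken from bulk cultures, in which fewer cells of a kind and less RNA per cell cannot be told apart.

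**Figure D1:**
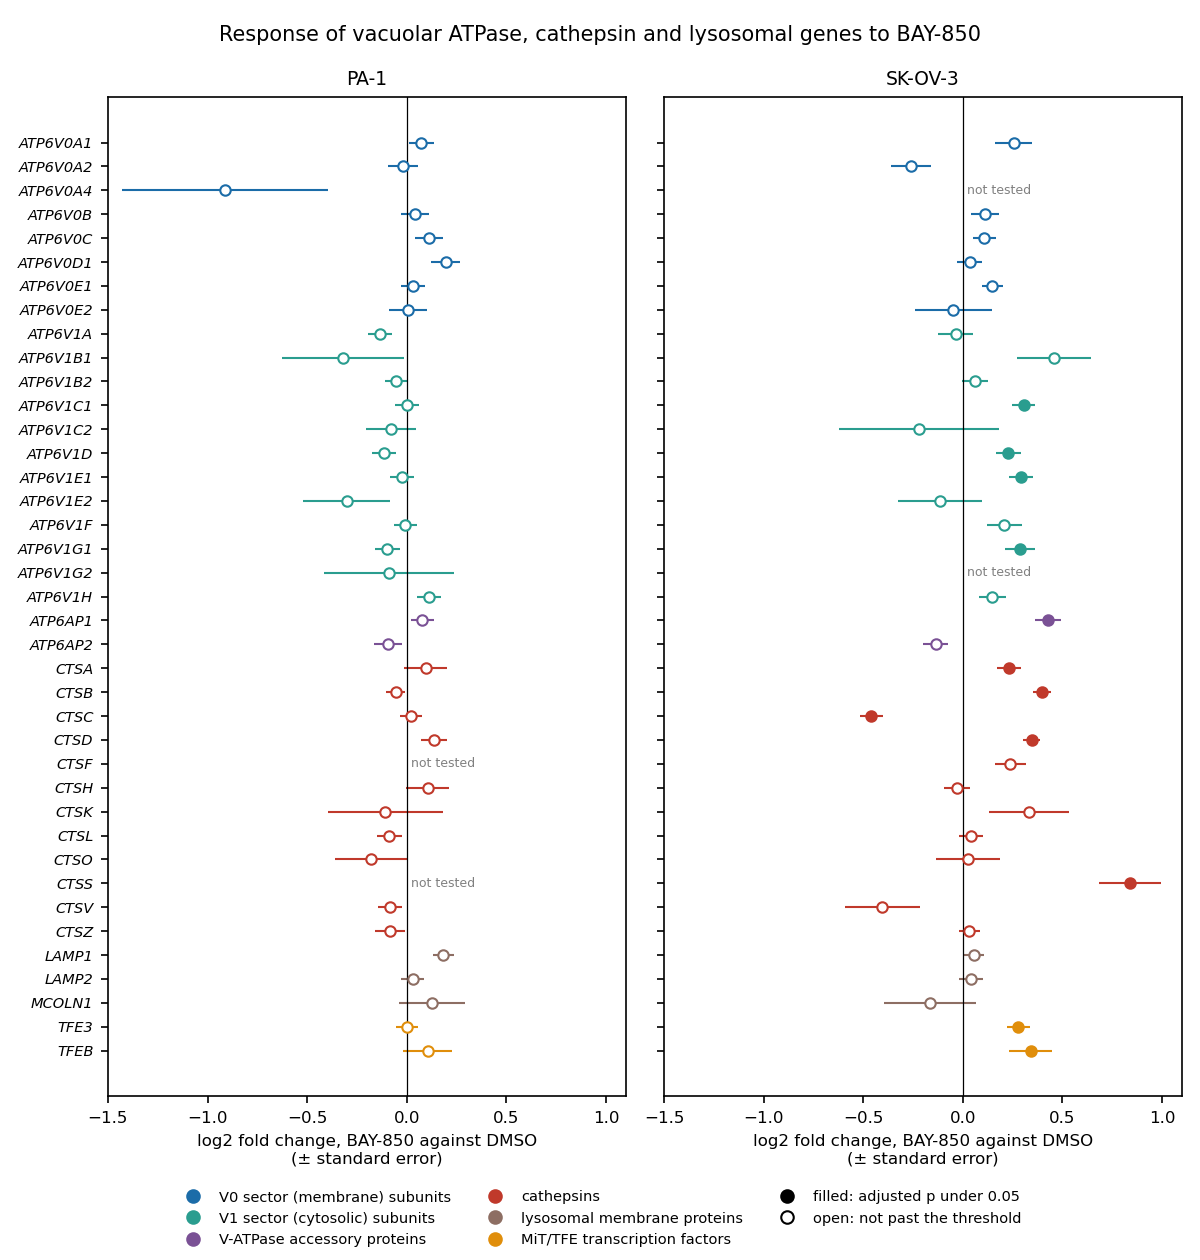
Log2 fold change (horizontal axis) of BAY-850 against DMSO with its standard error for each gene (rows, coloured by role) in PA-1 (left) and SK-OV-3 (right). Filled points have an adjusted p under 0.05, of which there are 12 in SK-OV-3 and 0 in PA-1; genes with too few counts in a line are marked as not tested.

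V0 subunits form the proton channel in the membrane, and among them the d subunit couples the V0 ring to the shaft. Within SK-OV-3, edgeR's test called 0 of the 7 V0 subunits tested, against 20.4% of all genes. A list of 7 genes is too short to tell this count from that share. ATP6V0A1, ATP6V0A2 and ATP6V0E1 had an unadjusted p under 0.05. ATP6V0E1 was called higher by DESeq2, and by edgeR with the GC trend removed or without DMSO replicate 1. ATP6V0A1 was called higher without BAY-850 replicate 3, and ATP6V0A2 lower when all 12 libraries were fitted together. ATP6V0E1, the small e subunit, measured 145, 142 and 139 CPM with DMSO and 152, 156 and 158 CPM with BAY-850, without overlap (log2 fold change 0.15, SE 0.05, adjusted p = 0.0671). The a subunits, which carry protons through the membrane and direct the pump to its compartment, had estimates of opposite sign. ATP6V0A1 stood at 0.25 (SE 0.09, adjusted p = 0.0753) and ATP6V0A2 at -0.26 (SE 0.10, adjusted p = 0.0973). ATP6V0B, ATP6V0C, ATP6V0D1 and ATP6V0E2 lay between -0.05 and 0.11.

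V1 subunits make the catalytic head and the stalks that link it to V0. ATP6V1C1, the C subunit that locks the head to the membrane part, measured 60.4, 63.2 and 62.5 CPM with DMSO and 74.4, 78.3 and 75 CPM with BAY-850. Its log2 fold change was 0.30 (SE 0.06, adjusted p = 0.00357), and every treated library stood above every control. ATP6V1E1 and ATP6V1G1 are the paired subunits of the outer stalks. The levels of ATP6V1E1 were 113, 107 and 105 CPM with DMSO and 127, 129 and 137 CPM with BAY-850 (log2 fold change 0.29, SE 0.06, adjusted p = 0.00600). Those of ATP6V1G1 were 113, 119 and 116 CPM with DMSO and 129, 136 and 155 CPM with BAY-850 (log2 fold change 0.29, SE 0.07, adjusted p = 0.0191). Neither pair of groups overlapped, and replicate 3 was the highest treated library for both genes. For ATP6V1G1 the call was lost without any single DMSO library (adjusted p = 0.0578, 0.0602 and 0.0713 without replicates 1, 2 and 3).

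ATP6V1D, the D subunit of the rotating shaft, measured 74.7, 73.2 and 73.0 CPM with DMSO and 84.2, 82.4 and 89.6 CPM with BAY-850. The difference of 0.23 (SE 0.06, adjusted p = 0.0239) passed the threshold but did not without DMSO replicate 2 (adjusted p = 0.0961), DMSO replicate 3 (0.0889) or BAY-850 replicate 1 (0.0521). The subunits of the catalytic hexamer itself did not pass. ATP6V1A, which holds the ATP site, measured 41.2, 43.7 and 47.6 CPM with DMSO and 40.1, 41.0 and 46.7 CPM with BAY-850 (log2 fold change -0.03, SE 0.09, adjusted p = 0.824). ATP6V1B2, the widely expressed B subunit, was at 0.06 (SE 0.07, adjusted p = 0.570). Its low-level relative ATP6V1B1 was at 0.46 (SE 0.19, adjusted p = 0.112), with libraries of 3.45 to 3.86 CPM against 4.72 to 5.12 CPM. ATP6V1F, ATP6V1H, ATP6V1C2 and ATP6V1E2 were not called either. ATP6V1G1, ATP6V1E1, ATP6V0E1, ATP6V0C and CTSL have annotated pseudogenes, and ATP6V1D and ATP6V1C1 overlap exons on the opposite strand. The counts of all these genes depend on how the authors' counting divided such reads. The libraries were strand-specific, but whether the counting used the strand is not given in the sources used here.

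ATP6AP1 (chrX:154428632-154436516, plus strand), an accessory protein that helps assemble the pump in the endoplasmic reticulum, had the smallest p of the pump's genes. Its levels were 43.0, 40.3 and 43.9 CPM with DMSO and 56.6, 57.4 and 55.6 CPM with BAY-850 (log2 fold change 0.43, SE 0.06, adjusted p = 8.03e-04). The rise brought SK-OV-3 near the level of PA-1, which was 58.8 to 59.4 CPM with DMSO. The other accessory protein, ATP6AP2, the prorenin receptor, measured 126, 146 and 136 CPM with DMSO and 119, 127 and 122 CPM with BAY-850, with overlap (log2 fold change -0.14, SE 0.06, adjusted p = 0.154).

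**Figure D2:**
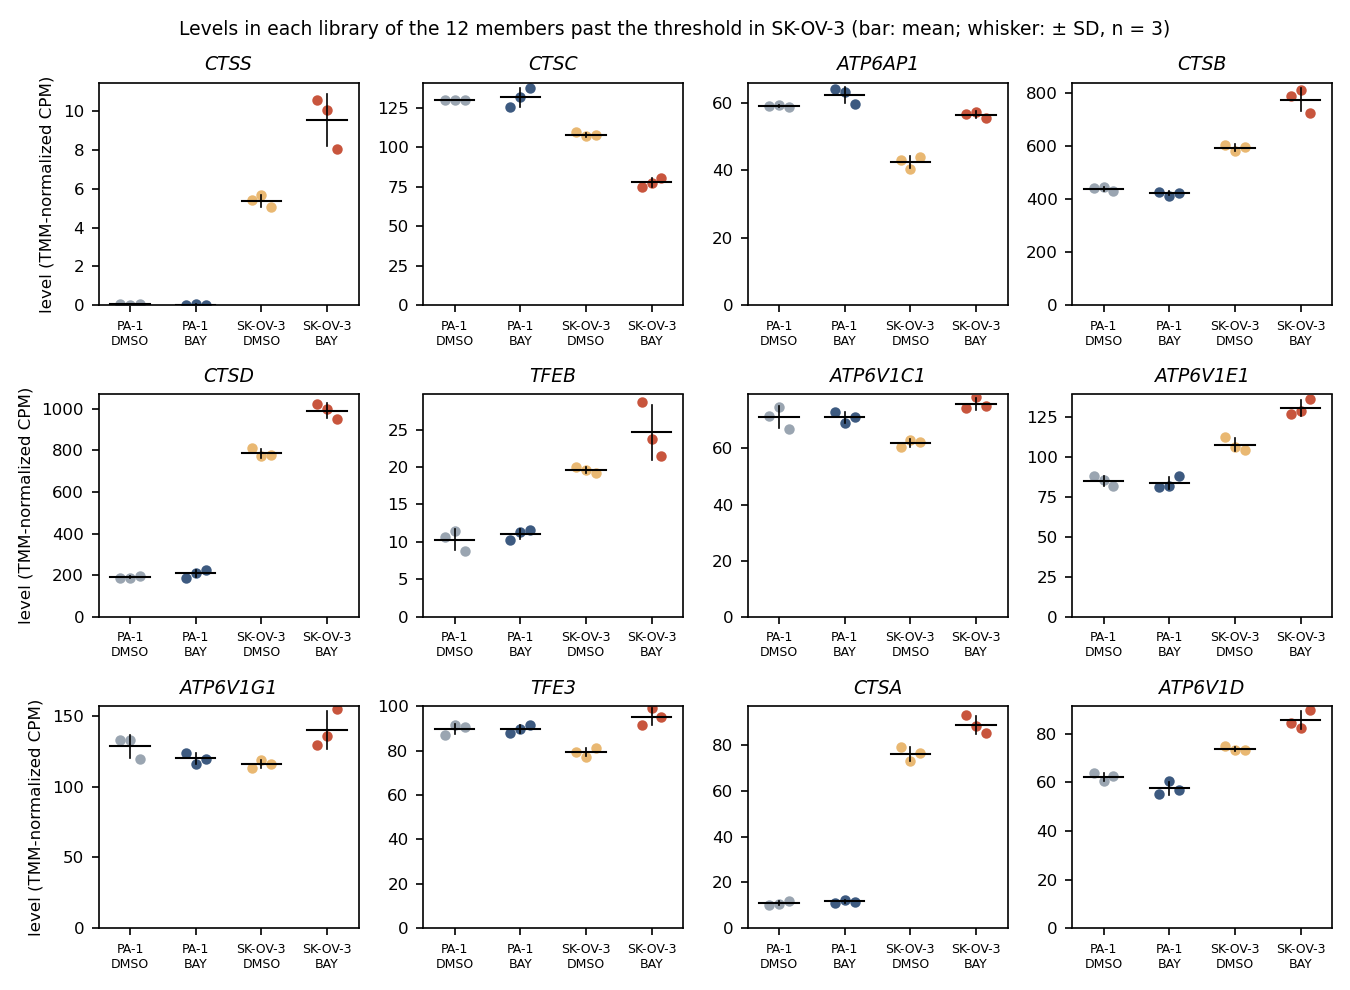
TMM-normalized CPM (vertical axes, from 0) in each of the 12 libraries for the 12 genes past the threshold in SK-OV-3, with the mean (bar) and SD (whisker, n = 3) of each group. The treated and control libraries of SK-OV-3 do not overlap in any panel, and CTSC alone is lower with BAY-850.

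Among the cathepsins, CTSB and CTSD were the most abundant and both rose in SK-OV-3. CTSB, cathepsin B, a cysteine protease that also works as a carboxydipeptidase, measured 606, 581 and 597 CPM with DMSO and 788, 811 and 727 CPM with BAY-850. This is 1.32-fold (log2 fold change 0.40, SE 0.05, adjusted p = 1.23e-04). CTSD, cathepsin D, the main aspartic protease of the lysosome, measured 812, 773 and 776 CPM with DMSO and 1021, 1000.1 and 953 CPM with BAY-850, 1.27-fold higher (log2 fold change 0.35, SE 0.04, adjusted p = 1.99e-04). Both genes kept their call in every alternative analysis run. CTSD overlaps an unnamed transcript on each strand.

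CTSS (chr1:150730196-150765957, minus strand), cathepsin S, is a cysteine protease best known from antigen-presenting cells. It was scarce in SK-OV-3, at 5.41, 5.66 and 5.05 CPM with DMSO, and stood at 10.6, 10.0 and 8.04 CPM with BAY-850. Its log2 fold change of 0.84 (SE 0.15, adjusted p = 0.00290) was the largest among the genes called. When all 12 libraries shared a fit, the adjusted p was 0.0599. Of 6 haematopoietic and macrophage markers, PTPRC, CD14, CSF1R, CD163 and TYROBP were under 1 CPM in every group. The sum of the 6 was 28.6 to 29.4 CPM in SK-OV-3 with DMSO and 38.2 to 40.3 CPM with BAY-850, nearly all of it CD68, which is itself a lysosomal membrane protein. CD68 measured 28.4, 28.8 and 28.5 CPM with DMSO and 39.7, 39.9 and 37.6 CPM with BAY-850. The part of such cells in the level of CTSS was not tested.

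CTSA, cathepsin A, is a serine carboxypeptidase that also shields the sialidase NEU1 and beta-galactosidase in a complex. Its levels were 79, 72.9 and 76.5 CPM with DMSO and 92.9, 88.1 and 85.2 CPM with BAY-850 (log2 fold change 0.23, SE 0.06, adjusted p = 0.0172). The groups did not overlap, but the call was lost without DMSO replicate 2 (adjusted p = 0.102), DMSO replicate 3 (0.0590) or BAY-850 replicate 1 (0.0803). CTSA overlaps exons of NEURL2 and PLTP on the opposite strand.

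CTSC (chr11:88293592-88337787, minus strand, GRCh38), cathepsin C, activates the serine proteases of granules. It went the other way, with 109, 107 and 107 CPM under DMSO and 75.1, 77.6 and 80.4 CPM under BAY-850. The log2 fold change of -0.46 (SE 0.06, adjusted p = 2.41e-04) held its call under every alternative run. CTSV, a close relative of cathepsin L, had a similar estimate with a wider error (-0.40, SE 0.19, adjusted p = 0.163), and its libraries of 7.02, 8.41 and 7.13 CPM with DMSO stood above those with BAY-850, at 6.72, 6.02 and 4.23 CPM.

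CTSF narrowly missed the threshold. It measured 47.1, 43.1 and 40.4 CPM with DMSO and 52.6, 52.8 and 47.4 CPM with BAY-850 (log2 fold change 0.24, SE 0.08, adjusted p = 0.0503). CTSL, the endopeptidase cathepsin L, was at 0.04 (SE 0.06, adjusted p = 0.696) and CTSZ, a carboxypeptidase, at 0.03 (SE 0.05, adjusted p = 0.720), although both were abundant. CTSH, CTSK and CTSO had adjusted p values of 0.280 to 0.936. Cathepsins E, G and W reached at most 0.298, 0.0263 and 0.242 CPM in any library.

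The 3 lysosomal membrane proteins were not called in SK-OV-3, where 20.4% of all genes were called. LAMP1, a heavily glycosylated protein of the lysosomal membrane, measured 252, 237 and 237 CPM with DMSO and 257, 254 and 237 CPM with BAY-850 (log2 fold change 0.05, SE 0.05, adjusted p = 0.496). Its relative LAMP2, the receptor of chaperone-mediated autophagy, was at 0.04 (SE 0.06, adjusted p = 0.678). MCOLN1, a calcium channel of the lysosome, was at -0.16 with an SE of 0.23.

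Both transcription factors rose at the RNA level. TFE3 measured 79.5, 77.2 and 81.0 CPM with DMSO and 91.4, 98.9 and 95.1 CPM with BAY-850 (log2 fold change 0.28, SE 0.06, adjusted p = 0.00582). TFEB measured 19.9, 19.7 and 19.2 CPM with DMSO and 28.7, 23.7 and 21.5 CPM with BAY-850 (log2 fold change 0.34, SE 0.11, adjusted p = 0.0453). No libraries overlapped for either gene, but the treated libraries of TFEB were spread widely and its call was lost in 12 of 17 alternatives, with an adjusted p of 0.191 without BAY-850 replicate 1. RNA does not show where these proteins were in the cell.

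In PA-1 cells, 0 of 37 genes tested were called in either direction by edgeR's quasi-likelihood test, against 7.13% of all 15212 genes tested (4.65% higher and 2.48% lower). At an unadjusted p under 0.05 there were 3 (LAMP1, ATP6V0D1 and ATP6V1A), and DESeq2 and limma-voom each called 1, LAMP1. The libraries of the groups did not overlap for 8 of the 37, against 27.5% of all genes. The median log2 fold change of the 37 was -0.01.

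LAMP1 measured 138, 137 and 144 CPM with DMSO and 158, 161 and 157 CPM with BAY-850. All treated libraries were above all controls (log2 fold change 0.18, SE 0.05, adjusted p = 0.0508), and 5 of 17 alternatives put it past the threshold. Over these alternatives the estimate ran from 0.14 to 0.21 and the adjusted p from 0.00947 to 0.285. ATP6V0D1, the d subunit that couples the V0 ring to the shaft, measured 35.8, 31.4 and 35.9 CPM with DMSO and 38.5, 37.7 and 41.6 CPM with BAY-850 (log2 fold change 0.20, SE 0.07, adjusted p = 0.124). Its groups did not overlap either.

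For ATP6V1A the values were 108, 103 and 95.7 CPM with DMSO and 97.1, 91.3 and 90.4 CPM with BAY-850, with overlap (log2 fold change -0.13, SE 0.06, adjusted p = 0.200). CTSD was at 189, 185 and 195 CPM with DMSO and 189, 211 and 225 CPM with BAY-850 (log2 fold change 0.14, SE 0.07, adjusted p = 0.216). ATP6V1D and ATP6V1H, the regulatory H subunit, were separated without overlap but in opposite directions. ATP6V1D measured 63.8, 60.6 and 62.6 CPM with DMSO and 55.2, 60.4 and 56.9 CPM with BAY-850 (log2 fold change -0.11, SE 0.06, adjusted p = 0.278). ATP6V1H measured 38.6, 39.6 and 39.1 CPM with DMSO and 41.8, 42.2 and 42.5 CPM with BAY-850 (log2 fold change 0.11, SE 0.06, adjusted p = 0.295).

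Log2 fold changes in PA-1 also moved with the GC content of genes (Spearman's rho 0.365 over 14816 genes, as a description), more than in SK-OV-3 (0.0977 over 14921 genes). The genes followed here had a median GC content of 49.4% in PA-1 and 50.6% in SK-OV-3, close to the 49.6% and 49.3% of all genes. With the GC trend removed, 11 genes were called higher and 1 lower in SK-OV-3, with ATP6V0E1 in place of TFEB, and their median log2 fold change was 0.07 instead of 0.11. In PA-1 edgeR then called 0 of them, with 4 at an unadjusted p under 0.05. Of the 6 genes with the smallest p in PA-1, those higher with BAY-850 were CTSD (63.6% GC), ATP6V0D1 (57.3%), LAMP1 (55.2%) and ATP6V1H (45.4%). Those lower were ATP6V1A (40.6%) and ATP6V1D (43.4%). Over the 17 alternatives the estimate of CTSD in PA-1 ran from 0.04 to 0.20. That of ATP6V1A ran from -0.18 to -0.03.

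The difference between the lines was tested with an interaction term in a fit of all 12 libraries. Of 40 genes tested, 7 had a higher response in SK-OV-3 than in PA-1 and 1 a lower response, against 6.70% and 7.77% of all 16830 genes (14.5% in all). Those with a higher response were CTSB, ATP6AP1, ATP6V1D, ATP6V1G1, ATP6V1E1, TFE3 and ATP6V1C1, and CTSC had the lower response. For CTSB the responses were -0.06 (SE 0.05) in PA-1 and 0.40 (SE 0.05) in SK-OV-3, and for CTSC 0.02 (SE 0.06) and -0.46 (SE 0.06). ATP6AP1 stood at 0.08 (SE 0.06) in PA-1 against 0.43 in SK-OV-3, and TFE3 at 0.00 (SE 0.06) against 0.28. The V1 subunits C1, D, E1 and G1 lay between -0.11 and 0.00 in PA-1 and between 0.23 and 0.30 in SK-OV-3.

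CTSD, CTSA and TFEB passed the threshold only in SK-OV-3, but their responses were not shown to differ between the lines. The differences were 0.20 (SE 0.08, adjusted p = 0.123) for CTSD, 0.13 (SE 0.10, adjusted p = 0.451) for CTSA and 0.23 (SE 0.18, adjusted p = 0.438) for TFEB. CTSS had too few counts in PA-1 for this comparison to be informative (SE 1.13, adjusted p = 0.250). Of the 7 higher responses, 4 passed without PA-1 BAY-850 replicate 2, namely CTSB, ATP6AP1, ATP6V1D and ATP6V1G1.

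The untreated lines were compared next. With DMSO, all 39 genes tested differed between SK-OV-3 and PA-1, 24 higher and 15 lower in SK-OV-3, but 80.3% of all 16070 genes did so (40.1% higher and 40.2% lower). None of the 39 had overlapping libraries, against 82.3% of all genes without overlap. Cathepsins were mostly higher in SK-OV-3, 10 of 12 tested, with a median log2 fold change of 1.82 against 0.00 for all genes. V0 and V1 subunits divided into 9 higher and 11 lower of 20.

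**Figure D3:**
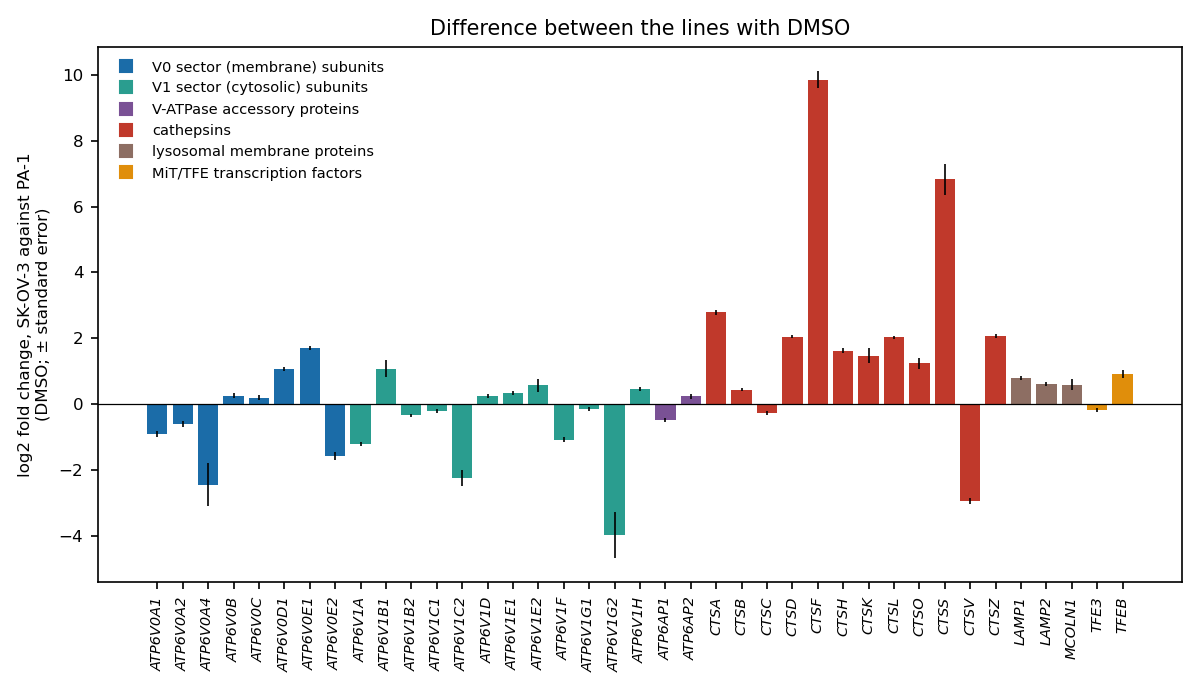
Log2 fold change (vertical axis) of SK-OV-3 against PA-1 with DMSO for the 39 genes tested, coloured by role, with standard errors. Of the 12 cathepsins, 10 lie above 0, led by CTSF and CTSS, and the V-ATPase subunits lie on both sides.

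CTSF, a cysteine protease, and CTSS were close to 0 in PA-1. CTSF had 0, 1 and 4 counts in the PA-1 DMSO libraries and 1873, 1628 and 1558 in those of SK-OV-3, a ratio of 1002 (95% exact counting interval 429 to 3087). CTSS had 3, 0 and 2 counts against 215, 214 and 195, a ratio of 124 (95% interval 52.7 to 382). These intervals cover counting error only. With BAY-850, PA-1 had 0, 0 and 1 counts of CTSF and 0, 2 and 0 of CTSS.

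Other cathepsins were present in both lines. CTSA stood at 10.3, 10.8 and 11.9 CPM in PA-1 and 79, 72.9 and 76.5 CPM in SK-OV-3 (log2 fold change 2.79, SE 0.08, adjusted p = 3.98e-12). CTSZ stood at 35, 36.0 and 33.8 CPM against 153, 144 and 140 CPM (2.06, SE 0.06, adjusted p = 7.46e-12). For CTSD the levels were 189, 185 and 195 CPM against 812, 773 and 776 CPM (2.05, SE 0.05, adjusted p = 1.41e-12). CTSV was the main exception, with 58.1, 59.8 and 55.4 CPM in PA-1 and 7.02, 8.41 and 7.13 CPM in SK-OV-3 (-2.94, SE 0.09, adjusted p = 9.30e-12). CTSC was the other cathepsin lower in SK-OV-3 (-0.27, SE 0.05, adjusted p = 3.00e-04).

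Per kilobase of transcript, which allows genes to be compared, the order of cathepsins also differed. In PA-1 with DMSO CTSB led with 209 CPM per kb, before CTSD with 103, CTSC with 44.3, CTSL with 30.6, CTSZ with 23.4 and CTSV with 19.7. In SK-OV-3 with DMSO CTSD led with 429 CPM per kb, before CTSB with 282, CTSL with 125, CTSZ with 97.5, CTSA with 39.3 and CTSC with 36.8. CTSB made up 46.7% of summed cathepsin RNA per length in PA-1 and 26.4% in SK-OV-3, and CTSD 23.1% and 40.1%. CTSH stood at 9.05 and 27.8 CPM per kb, CTSO at 1.38 and 3.26, and CTSK at 1.01 and 2.81.

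**Figure D4:**
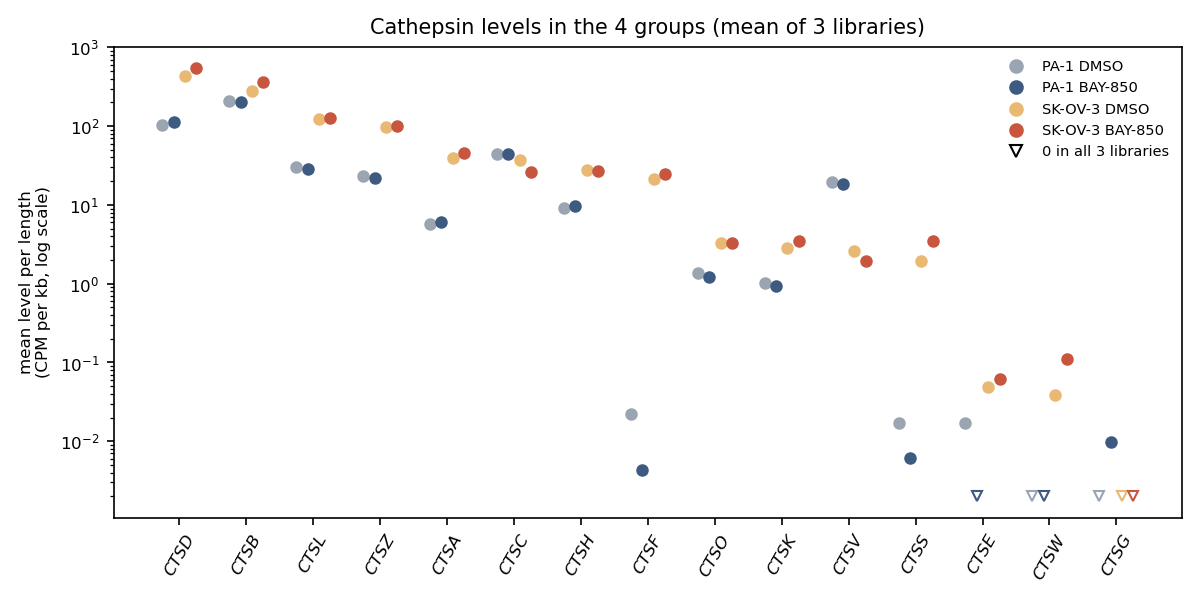
Mean level of each cathepsin in CPM per kb (vertical axis, log scale) in the 4 groups, ordered by the level in SK-OV-3 with DMSO. CTSB leads in PA-1 and CTSD in SK-OV-3, CTSV is the cathepsin with the reverse difference of over 2 on the log2 scale, and open triangles mark groups in which all 3 libraries were at 0.

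The V-ATPase genes that were lowest in SK-OV-3 relative to PA-1 were second forms of a subunit with restricted expression in the body. ATP6V1G2, the neuronal G form, had 46, 54 and 74 counts in PA-1 and 3, 0 and 8 in SK-OV-3 (log2 fold change -3.98, SE 0.69, adjusted p = 1.62e-04), and it shares exons with a read-through transcript. ATP6V0A4, the a form known from kidney, had 32, 60 and 11 counts against 3, 10 and 5 (-2.45, SE 0.66, adjusted p = 0.00428). ATP6V1C2 measured 9.69, 8.12 and 7.98 CPM in PA-1 and 2.31, 1.98 and 1.17 CPM in SK-OV-3 (-2.24, SE 0.24, adjusted p = 2.03e-06). ATP6V0E2 measured 14.4, 14.8 and 15.9 CPM against 5.46, 4.76 and 4.85 CPM (-1.58, SE 0.13, adjusted p = 1.31e-07).

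As shares of their subunit per length, these second forms were the smaller part in both lines. ATP6V0E2 made up 13.4% ± 0.920 (SD, n = 3) of e-subunit RNA in PA-1 and 1.56% ± 0.0917 in SK-OV-3. ATP6V1C2 made up 13.5% ± 1.30 of C-subunit RNA in PA-1 and 3.65% ± 1.2 in SK-OV-3. For the B subunit the order was the reverse, with ATP6V1B1 at 2.44% ± 0.717 in PA-1 and 6.26% ± 0.283 in SK-OV-3. The shares of ATP6V0D2 and ATP6V1G3 were below 1% in each group, and ATP6V1E2 made up 2.82% ± 0.505 in PA-1 and 3.30% ± 0.264 in SK-OV-3. ATP6V1C2, ATP6V1E2 and ATP6V0A4 overlap exons of PDIA6, RHOQ and TMEM213, in that order, on the opposite strand. ATP6V1B1 overlaps exons of VAX2 on its own strand, and ATP6V0E2 overlaps exons on both strands. The levels, differences and shares of these forms thus depend on how the counting divided such reads.

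The core subunits also differed in level between the lines. ATP6V0E1 stood at 50.5 CPM per kb in PA-1 and 165 CPM per kb in SK-OV-3 with DMSO, and ATP6V0D1 at 22.7 and 47.7. ATP6V1A, by contrast, stood at 22.2 CPM per kb in PA-1 and 9.61 in SK-OV-3, and ATP6V1F, a subunit of the rotor shaft, at 95.7 and 45.3. Between them lay ATP6V0C, the ring subunit that carries protons, at 122 and 140 CPM per kb, and ATP6V1G1 at 119 and 107. LAMP1 was at 51.8 and 89.7, LAMP2 at 28.9 and 44.3 and MCOLN1 at 2.86 and 4.32 CPM per kb, and TFEB at 4.54 and 8.63 while TFE3 was at 26.3 and 23.2.

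The remaining subunits had these ranges over all 12 libraries. ATP6V0A1 ran from 33.2 to 71.4 CPM and ATP6V0A2 from 14.5 to 31.2 CPM, both higher in PA-1, and ATP6V0B from 54.2 to 76.9 CPM. ATP6V1B2 ran from 76.9 to 111 CPM. ATP6V0D2, a form known from osteoclasts and kidney, reached 0.670 CPM at most and ATP6V1G3 0.118 CPM. TCIRG1, the a3 subunit, whose symbol lies outside the choice, stood at 7.65 CPM per kb in PA-1 and 17.9 in SK-OV-3 with DMSO, beside 20.2 and 10.8 for ATP6V0A1.

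Summed CPM in SK-OV-3 depends most on the most abundant genes. Cathepsins summed to 1980 to 2074 CPM with DMSO and 2312 to 2444 CPM with BAY-850, V1 subunits to 577 to 590 and 654 to 683 CPM, and V0 subunits to 451 to 477 and 474 to 503 CPM. Only the V0 sums overlapped among these 3. In PA-1 the cathepsins summed to 925 to 933 CPM with DMSO and 906 to 957 CPM with BAY-850. PA-1 sums of V1 subunits were 659 to 690 and 644 to 655 CPM, a separation in the downward direction.

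Other lysosomal genes were counted by lists. The lists were chosen with earlier results of these data known, so their shares describe the lists and are not independent evidence. Among lysosomal membrane and transport genes outside the choice, 9 of 24 (37.5%) rose in SK-OV-3 by edgeR's test, against 10.8% of all genes. The median log2 fold change of the list was 0.27, against -0.01 for all genes. NPC1, which exports cholesterol from the lysosome, measured 94.7, 98.2 and 101 CPM with DMSO and 207, 216 and 179 CPM with BAY-850 (log2 fold change 1.04, SE 0.07, adjusted p = 1.24e-06). TPCN1, a two-pore cation channel, rose by 0.64 (SE 0.07, adjusted p = 8.99e-05), and PSAP, the precursor of the saposins, by 0.43 (SE 0.05, adjusted p = 9.42e-05).

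Lysosomal hydrolases other than cathepsins moved both ways in SK-OV-3, with 7 of 38 higher (18.4%) and 4 lower (10.5%). Over all genes these shares were 10.8% and 9.56%, so the share that fell is near that of all genes. NEU1, the sialidase held by CTSA, measured 23.8, 22.1 and 22.9 CPM with DMSO and 46.0, 41.2 and 45.3 CPM with BAY-850 (log2 fold change 0.96, SE 0.08, adjusted p = 1.20e-05). TPP1, a tripeptidyl peptidase, rose by 0.50 (SE 0.06, adjusted p = 1.63e-04), while PPT1, a palmitoyl thioesterase, fell by 0.29 (SE 0.06, adjusted p = 0.00357). Of 8 genes of mannose 6-phosphate and sortilin sorting, 2 fell, SORL1 by 0.87 (SE 0.08, adjusted p = 2.04e-05) and GNPTAB by 0.37 (SE 0.09, adjusted p = 0.0144).

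A further list, also chosen with earlier results of these data known, joined MITF, a relative of TFEB and TFE3, to genes of lysosomal mTORC1 docking. In SK-OV-3 it had 8 of 15 higher (53.3%) and 1 lower (6.67%), against 10.8% and 9.56% of all genes. The median log2 fold change of the list was 0.29, against -0.01 for all genes. RRAGD and RRAGC are Rag GTPases that recruit mTORC1 and its substrates. RRAGD rose by 0.66 (SE 0.08, adjusted p = 2.38e-04) and RRAGC by 0.60 (SE 0.06, adjusted p = 7.60e-05). FLCN, the activating protein for these GTPases, rose by 0.62 (SE 0.10, adjusted p = 8.77e-04). MTOR, the kinase itself, fell by 0.32 (SE 0.07, adjusted p = 0.00706). Of 13 further V-ATPase subunit and assembly genes 1 rose (7.69%, against 10.8% of all genes), RNASEK (0.43, SE 0.09, adjusted p = 0.00599). Of 3 cystatins tested, which inhibit cathepsins, CSTB rose by 0.38 (SE 0.06, adjusted p = 0.00164).

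In PA-1 these 6 lists held 5 calls among 98 genes tested, all higher. That is 5.10% of them, near the 4.65% of all genes called higher. They were CLCN7, a chloride exchanger of the lysosome (0.34, SE 0.07, adjusted p = 0.00716), IGF2R, the large mannose 6-phosphate receptor (0.40, SE 0.09, adjusted p = 0.0152), RRAGD (0.38, SE 0.09, adjusted p = 0.0175), MTOR (0.23, SE 0.06, adjusted p = 0.0377) and the serine carboxypeptidase SCPEP1 (0.27, SE 0.07, adjusted p = 0.0392). RRAGD and CLCN7 were thus higher with BAY-850 in both lines, whereas MTOR was higher in PA-1 and lower in SK-OV-3, a difference of -0.56 (SE 0.09, adjusted p = 9.13e-04).

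**Figure D5:**
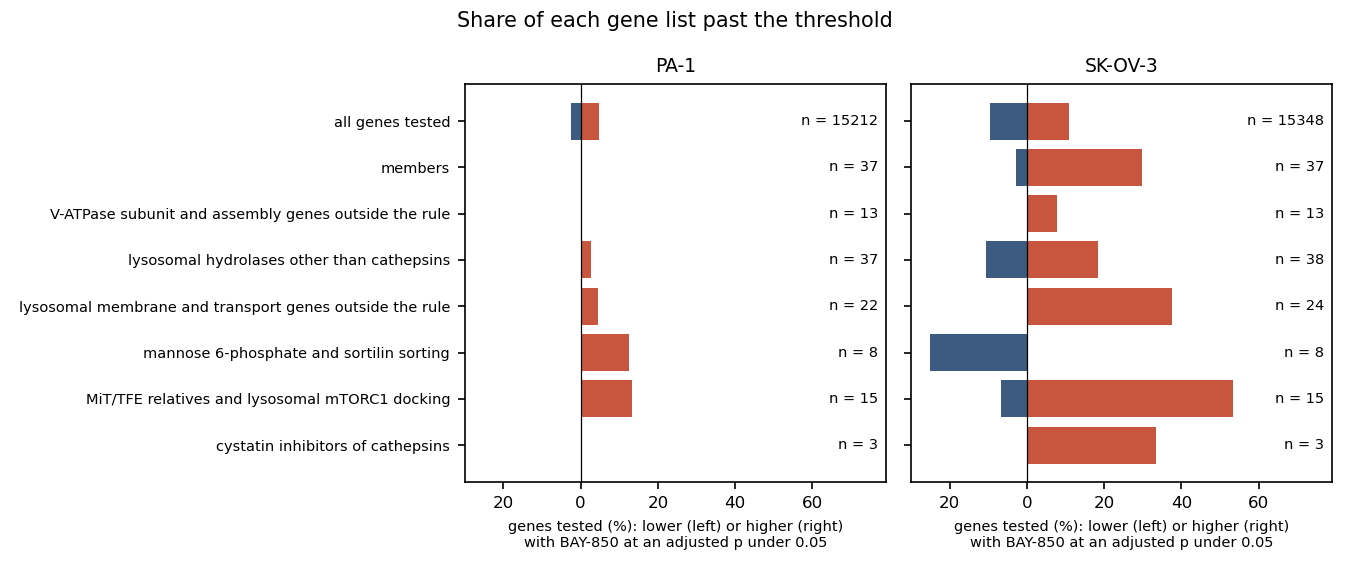
Percentage of the genes tested (horizontal axis) that were lower (blue, left) or higher (red, right) with BAY-850 at an adjusted p under 0.05, for all genes, the genes followed here (members) and 6 further lists, with the number tested. In SK-OV-3 the list of MiT/TFE relatives and lysosomal mTORC1 docking has 8 of 15 genes higher, and in PA-1 the genes followed here have 0. The genes followed here and the lists were chosen with earlier results of these data known.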

How the data were processed

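RNA-seq of 12 libraries was used, 3 for each of the 4 groups. Expected counts for each gene symbol were deposited by the authors, estimated with RSEM without normalization between libraries. The submitters' processing notes name Bowtie2 2.1.0, RSEM 1.2.15 and hg38. Second strands were marked with dUTP, so libraries were strand-specific, but the annotation and the strand setting of the counting are not given in the sources used here. RSEM divides reads that fit several genes, and 8.94% to 12.4% of a library's values were not whole.

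Expected counts were rounded. Within each line, edgeR 4.0.16 (R 4.3.3) was run with TMM factors, its filter on low counts and its quasi-likelihood test, without the replicate number. The interaction used all 12 libraries and the comparison of the lines the 6 DMSO libraries. Adjusted p-values are Benjamini-Hochberg values over all genes tested, with a threshold of 0.05. The SE is the log2 fold change divided by the square root of F. Levels are CPM with TMM factors over 12 libraries. CPM per kb uses the mean length of GENCODE coding transcripts on GRCh38. Summed levels and shares are descriptions without a test.

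The 44 genes and all lists were chosen with earlier results of these data known. Per-library values are given for genes past the threshold (at most 12 per line, or the 6 with the smallest p), the 5 largest differences between the lines in each direction, and at most 3 genes of each further list; CTSF, CTSV, ATP6V0E1, ATP6AP2, ATP6V1B1 and CD68 were added after their values were seen. Alternatives were DESeq2 1.42.0, limma-voom (limma 3.58.1), other scalings and filters, removal of the GC trend, a replicate block, a fit of all 12 libraries, and leaving out each library. Among the scalings was a library size without ribosomal RNA genes, used without TMM factors. Only the main edgeR test was tried on simulated counts. The changes put in were all larger than those of the genes followed here that were called in SK-OV-3. The simulation therefore shows nothing about changes of that size, and it did not cover the alternatives. All pairs of replicates differed beyond counting noise (chi-square divided by its degrees of freedom, 4.96 to 68.4). The study's methods describe biological replicates for its experiments in general. The labels number the libraries without naming separate cultures, so p-values measure the spread between these libraries. With 3 libraries a side, the smallest two-sided p of an exact permutation test is 0.1.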

Additional observations from a re-analysis of the deposited data

Results flagged for a closer look

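For 8 genes the response to BAY-850 differed between the lines by the interaction term of edgeR's quasi-likelihood test. The difference, SK-OV-3 minus PA-1 on the log2 scale, was -0.49 (SE 0.07, adjusted p = 2.78e-04) for CTSC and 0.44 (SE 0.07, adjusted p = 3.99e-04) for CTSB. It was 0.34 (adjusted p = 0.0104) for ATP6AP1 and 0.27 (adjusted p = 0.0223) for TFE3. Among the V1 subunits it was 0.37 (adjusted p = 0.0160) for ATP6V1G1, 0.33 (adjusted p = 0.0113) for ATP6V1D, 0.30 (adjusted p = 0.0188) for ATP6V1E1 and 0.29 (adjusted p = 0.0225) for ATP6V1C1. The calls of TFE3, ATP6V1E1 and ATP6V1C1 were each lost under 5 of 22 alternatives. That of ATP6V1C1 was lost with the GC trend removed (0.20, adjusted p = 0.103), with the replicate block (0.29, adjusted p = 0.0553) and with both (0.20, adjusted p = 0.164). The calls of ATP6V1D and ATP6V1G1 were lost under 1 alternative, the GC trend removed with the replicate block (adjusted p = 0.0798 and 0.0505). Those of CTSC, CTSB and ATP6AP1 were kept under all 22.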

How the results depend on the processing

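Values under the alternatives were kept for the genes named by the rule in each comparison, and all 638 kept their direction. For the other genes followed here only the calls under each alternative were kept. For genes of the further lists neither was kept. In PA-1, 1 gene (LAMP1) was called higher under DESeq2, limma-voom, no count filter, a minimum of 10 counts per library, and all 12 libraries in one fit, and 0 under every other setting. In SK-OV-3 the number called higher ranged from 7 to 14 when a library was left out, with 7 without DMSO replicate 2 or DMSO replicate 3, and from 9 to 13 otherwise. The 7 genes were ATP6AP1, ATP6V1C1, ATP6V1E1, CTSB, CTSD, CTSS and TFE3 in both cases. The number called lower ranged from 1 to 2 when a library was left out (2 without DMSO replicate 1, with ATP6AP2) and was 3 with all 12 libraries in one fit (CTSC, CTSV and ATP6V0A2). The higher responses in SK-OV-3 than in PA-1 ranged from 4 to 8 when a library was left out (4 without PA-1 BAY-850 replicate 2). The comparison of the lines gave 22 to 24 genes higher and 12 to 15 lower. For each of these changes the cause was not tested.

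Over all genes in PA-1, 707 were called higher and 378 lower. Other scalings moved this split. Library size alone, without TMM factors, gave 235 and 231. A library size without ribosomal RNA genes, also without TMM factors, gave 543 and 505. With the GC trend removed the split was 512 and 108.

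With the replicate number as a block, 4 genes had a higher response in SK-OV-3 than in PA-1 instead of 7, and 3 with the GC trend removed as well. Within SK-OV-3 the block left 10 genes higher and 1 lower, and within PA-1 0. Deviations of libraries with the same number had correlations from -0.0319 to 0.0440, both extremes being between the lines with DMSO. Between DMSO and BAY-850 within a line they ran from -0.0277 to 0.00417. Pairs with different numbers in PA-1 ranged from -0.0468 to 0.0666. Whether libraries with the same number shared a culture or batch was not tested.

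Genes under 1 CPM rest on few counts, and ATP6V1G3, CTSE, CTSG and CTSW did not pass edgeR's filter on low counts in any comparison.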
